A study of Mus musculus with 13 samples.

Results

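Of the 2772 RNA polymerase III (PolIII) peaks called in control Hepa 1-6 cells, 323 overlapped a KAP1 peak by at least 1 bp, and these 323 regions are described here. They were chosen by 2 measured lists, the control PolIII peaks and the KAP1 peaks, so the overlap itself is no finding. The lists come from ChIP-seq: DNA pulled down with an antibody was sequenced, and a peak is a region called as enriched. Of the 323 regions, 133 held at least 1 tRNA element found by a sequence search (4.94% of the whole control list did). Another 14 lay on a gene assigned by annotation to another class read by PolIII, such as 7SK, RNase MRP, 7SL or U6 RNA. The remaining 176 held neither, and 64 of these lay in H3K9me3, as did 18.8% of the whole list.

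PolIII transcribes short non-coding RNAs that every cell needs, above all tRNAs, 5S rRNA, U6 and 7SK RNA. At tRNA genes the promoter lies inside the gene, in an A box and a B box that are bound by TFIIIC, which then places TFIIIB and the polymerase at the start. At U6, 7SK and the RNase genes the promoter lies upstream instead, with a proximal sequence element bound by SNAPc and a TATA-like box. KAP1 (gene Trim28) is a corepressor that zinc finger proteins bring to DNA, best known for silencing transposable elements with H3K9me3.

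Hepa 1-6 is a murine hepatoma line, 1 line with no other genotype in the series. Cells in standard culture gave the KAP1 profile and those of the histone marks H3K27ac, H3K4me1 and H3K9me3. PolII and PolIII were profiled 5 days after lentiviral transduction and puromycin selection, in cells with a control hairpin by the labels or an empty vector by the methods (control) and in cells with a hairpin against KAP1 (Kap1 KD). The PolIII antibody was raised against RPC32, a subunit of the enzyme. Each of the 8 groups used here holds 1 library, no KAP1 profile of Kap1 KD cells was at hand, and read counts are not in the lists, so the depth is unknown. All p-values below are from tests over peaks or elements, which are not replicates of a condition, and they describe positions in these lists only. As a check of the cell type, H3K27ac lay within 250 bp of the start of 5 of 9 hepatocyte genes (Alb, Afp, Trf, Hnf4a and Foxa2, but not Apoa1, Apoa2, Ttr or Serpina1a). It lay there at 1 of 5 markers of other cell types and at 4464 of all 22367 protein-coding genes. Control PolII lay at 1 of the 9 and 1 of the 5, and H3K4me1 at 2 of the 9 and 2 of the 5.

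The control PolIII list was uneven along the genome, and the comparisons are therefore also given for 2 groups of chromosomes. Chromosomes 1 to 4 held 2480 of its 2772 peaks, with 141 members (5.69%), and the other chromosomes held 292 peaks, with 182 members (62.3%). The Kap1 KD list, of 431 peaks, held 89 on chromosomes 1 to 4. It held most on chromosome 15, with 78, where the control list held 32 peaks and 6 members. Whether the unevenness of either list is technical was not tested.

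The elements are shown first, since they are the largest single kind of member. tRNA genes were found by searching the mm9 genome for sequences that fold into a cloverleaf and hold both boxes, which gave 401 elements. The element nearest the centre of 4 of the 5 highest-scoring members comes first below, followed by those of the members next in score whose element nearest the centre had an anticodon not yet shown, 8 in all. Capitals mark the A box, the anticodon and the B box in that order, and positions are on mm9.
tRNA-Asp, chr1:172967161-172967231, minus strand: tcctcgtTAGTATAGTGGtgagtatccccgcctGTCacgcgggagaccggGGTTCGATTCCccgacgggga
tRNA-Lys, chr3:96303436-96303507, minus strand: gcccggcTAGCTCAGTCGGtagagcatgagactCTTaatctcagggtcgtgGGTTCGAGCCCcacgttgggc
tRNA-His, chr2:122203100-122203170, minus strand: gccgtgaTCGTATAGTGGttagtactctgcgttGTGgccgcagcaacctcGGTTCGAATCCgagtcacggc
tRNA-Asp, chr1:173032502-173032572, plus strand: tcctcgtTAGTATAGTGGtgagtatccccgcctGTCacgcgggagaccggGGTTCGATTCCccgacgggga
tRNA-Gly, chr11:68854781-68854851, minus strand: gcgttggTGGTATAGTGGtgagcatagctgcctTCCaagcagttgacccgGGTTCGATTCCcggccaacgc
tRNA-Leu, chr19:12085577-12085658, minus strand: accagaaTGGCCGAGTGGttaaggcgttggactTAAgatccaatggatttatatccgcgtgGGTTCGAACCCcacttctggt
tRNA-Leu, chr11:68937743-68937823, plus strand: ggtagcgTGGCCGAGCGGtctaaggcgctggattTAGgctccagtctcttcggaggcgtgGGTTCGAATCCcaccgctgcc
tRNA-Ser, chr11:68850979-68851059, plus strand: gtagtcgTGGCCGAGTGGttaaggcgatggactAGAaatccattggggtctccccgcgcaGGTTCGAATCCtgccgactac
tRNA-Pro, chr3:51162276-51162346, plus strand: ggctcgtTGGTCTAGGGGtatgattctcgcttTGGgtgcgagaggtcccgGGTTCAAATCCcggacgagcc
tRNA-Ser, chr11:68876545-68876625, minus strand: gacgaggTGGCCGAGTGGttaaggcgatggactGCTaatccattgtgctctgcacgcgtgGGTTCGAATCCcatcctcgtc
tRNA-Ala, chr2:57034489-57034559, plus strand: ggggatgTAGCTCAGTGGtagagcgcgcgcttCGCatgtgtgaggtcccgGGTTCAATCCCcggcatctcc
tRNA-Arg, chr11:115274619-115274690, minus strand: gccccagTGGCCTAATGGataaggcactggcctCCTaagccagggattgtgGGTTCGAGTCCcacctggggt

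The pair of Asp elements, on either strand of 2 different members, were the same sequence, which occurs 13 times in the genome and 8 times in members. The Lys sequence had 7 copies, all of them in members. Over all members the 207 elements had 108 distinct sequences. Identical copies can share reads, and how such reads were assigned was not stated.

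tRNA elements were common in members and rare in the rest of the control PolIII list. An element lay in 133 of 323 members, 41.2% (95% Wilson interval 35.9 to 46.6%), and in 4 of the 2449 control peaks without KAP1, 0.163% (0.0635 to 0.419%). Over the whole list it was 4.94%. The odds ratio was 428 (157 to 1169.5; two-sided Fisher's exact test, adjusted p = 1.10e-129). Its size depended on the search and the chromosomes, with 10.4 for the search without boxes, 95.1 for the B box motif in place of the element and 1596 without chromosome 3, all in the same direction and past the threshold. On chromosomes 1 to 4 the shares were 16.3% of members and 0.128% of others, and on the other chromosomes 60.4% and 0.909%. All adjusted p-values of Fisher's exact tests given for peaks are adjusted over the same 9 tests by Benjamini-Hochberg. The intervals cover counting error only.

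Seen from the elements, PolIII without KAP1 was rare. Of the 401 elements, 207 lay in members, 4 lay in a control PolIII peak without KAP1, 31 lay in a KAP1 peak without control PolIII, and 159 lay in neither. Most members with an element held just 1 (89), while 27 held 2, 7 held 3, 8 held 4, 1 held 5 and 1 held 6. The member with 6 was on chromosome 19 (12083002 to 12087131) and held elements for Phe, Lys, Leu and Arg and 2 for Val.

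All 20 standard amino acids had an element in a member. Every one of the 10 Tyr elements lay in a member, as did 22 of 25 for Arg, 13 of 16 for Thr, 15 of 20 for Lys and 6 of 8 for Trp. The lowest share was that of Cys, the family with most elements, with 7 of 51, followed by Ala with 8 of 33 and Val with 9 of 25. The remaining families lay between 41.4% for Gly and 72.7% for Asn. Anticodons were read from the sequence, and 2 elements whose anticodon is a stop codon's lay in no member. The shares are of elements found by the search, whose counts differed from RefSeq for some anticodons. They were 11 against 24 for Lys with CTT, 9 against 2 for Lys with TTT and 10 against 16 for Met.

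**Figure D1:**
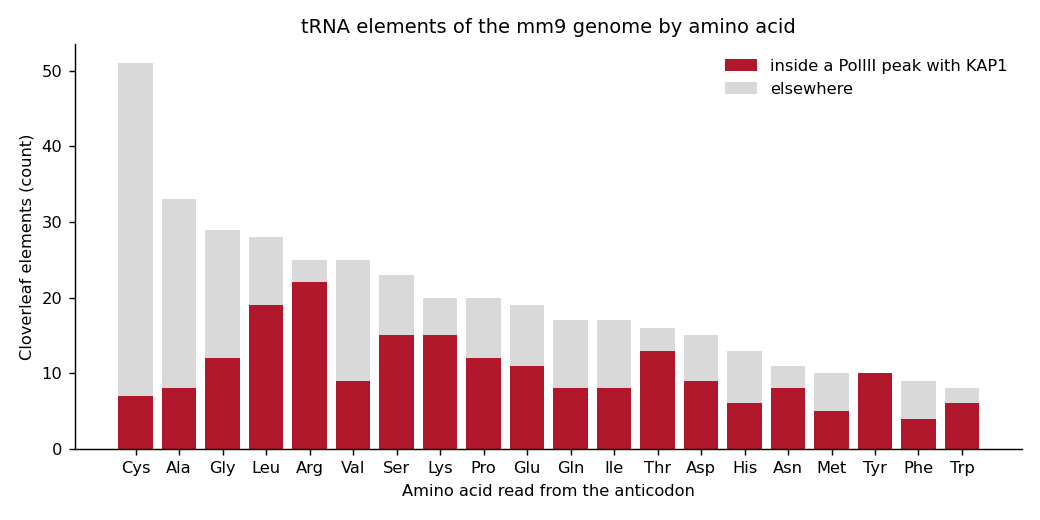
The number of tRNA elements in the mm9 genome for each of 20 amino acids, read from the anticodon, ordered by family size. Red is the part inside a PolIII peak with KAP1 and grey the rest: Cys has 7 of its 51 elements in red and Tyr all 10.

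PolIII and KAP1 peak centres lay close to the element, which is partly built in. These members were taken for a PolIII peak that holds the element and overlaps KAP1. The 133 members with an element had a median width of 600 bp, and no expected distance was worked out. In the 89 members with exactly 1 element, the PolIII peak centre lay a median of 88 bp downstream of the element's first base (quartiles 16 and 148 bp), and the KAP1 peak centre a median of 63 bp downstream (29 and 97 bp). The KAP1 peak covered the whole element in all 89. Within 200 bp of the first base lay 75 of the 89 PolIII centres and 74 of the KAP1 centres.

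**Figure D2:**
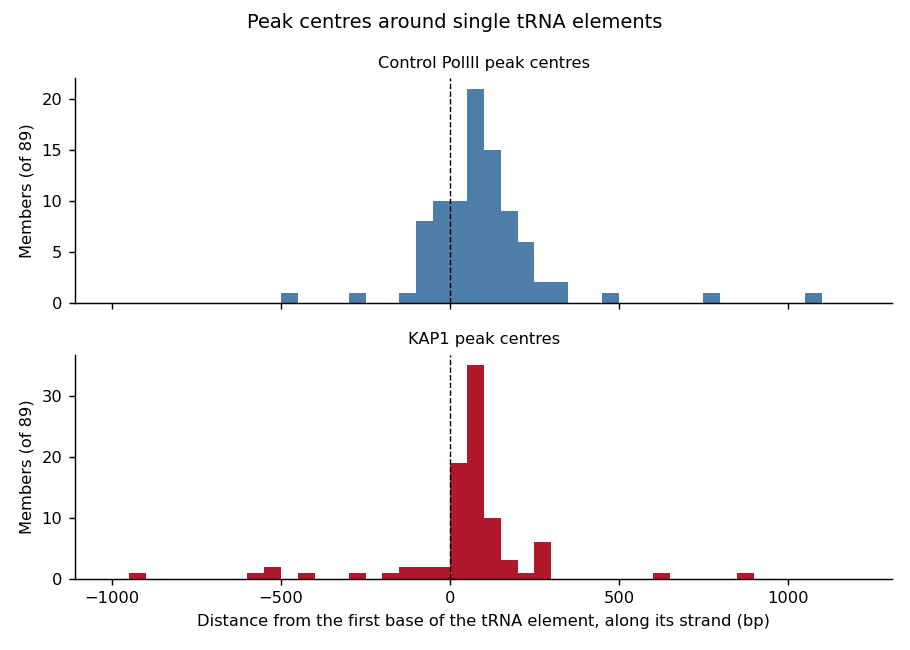
Histograms, in steps of 50 bp, of the distance from the first base of the tRNA element (dashed line, positive along its strand) to the control PolIII peak centre (top) and to the KAP1 peak centre (bottom) in the 89 members with 1 element. The medians are 88 and 63 bp, and both histograms peak just downstream of the first base.

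The highest deposited scores of the control PolIII list stood in members with several elements. The score is a whole number whose meaning was not stated, and it is given as a description because the list chose the members. The top member, chr1:172963455-172969052, scored 1306 in the control list and 255 in the Kap1 KD list, and held elements for Asn, Asp, Gly and Leu. The next, chr3:96301360-96305804, scored 1214 and 233 and held 5 elements. The third, chr2:122200888-122204038, scored 952 and 209 and held 3 His elements. The 2 after it, chr3:19527677-19529269 and chr1:173031781-173033508, scored 759 and 717 in the control and 150 and 138 under Kap1 KD. All 5 lay on chromosomes 1 to 4 and none overlapped H3K9me3. Outside those chromosomes the 3 highest-scoring members that were called again lay on chromosome 11 (68853815 to 68856019, score 619, and 68936633 to 68938959, score 506) and on chromosome 19 (12083002 to 12087131, score 615), with Kap1 KD scores of 469, 269 and 294. Over all members the score ran from 12 to 1306 with a median of 59, against 11 to 351 with a median of 28 in the other control peaks.

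KAP1 scores at members are given as a description too, since the KAP1 list took part in the choice. They are tied at 3100 in 152 peaks, and the highest score of the list, 3195.62, was not at a member. Of the 133 members with an element, 89 carried a KAP1 peak of at least 3100, and so did 20 of the 190 without one. The median KAP1 score was 3100 at members with an element and 270.4 at the others.

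Other PolIII genes added 14 members without a tRNA element. Of 1635 annotated genes of the listed PolIII classes, most of them copies named for 7SK (331), U6 (936) or 5S rRNA (309), 15 lay in a control PolIII peak, and all 15 were in members. Of the 14 members over these 15 genes, 12 overlapped a Kap1 KD PolIII peak, against 6.75% of the whole control list. No 5S rRNA gene was in a control PolIII peak. The 15 were 3 genes named 7SK, 5 named U6, and 1 each for U6atac, RNase MRP (Rmrp), RNase P (Rpph1), a Y RNA (Rny1) and a vault RNA, and the 7SL genes Rn7s1 and Rn7s2. The member over a pair of U6 genes on chromosome 12 accounts for 15 genes in 14 members.

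The genes with an upstream promoter are shown by the 70 bases before their annotated start, on the gene's strand. The capitals mark TCACC, found here in 9 of the 15, and TGACGTCA, found in both 7SL genes. Both motifs were searched on the gene's strand only, and they were chosen after the sequences were seen.
Rn7sk, chr9:78023441-78023510, minus strand: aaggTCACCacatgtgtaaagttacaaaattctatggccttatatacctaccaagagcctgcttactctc
Rmrp, chr4:43505931-43506000, minus strand: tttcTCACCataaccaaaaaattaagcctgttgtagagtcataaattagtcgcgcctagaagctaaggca
Rpph1, chr14:51427443-51427512, minus strand: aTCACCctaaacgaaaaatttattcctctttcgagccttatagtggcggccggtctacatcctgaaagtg
Rny1, chr6:47738180-47738249, minus strand: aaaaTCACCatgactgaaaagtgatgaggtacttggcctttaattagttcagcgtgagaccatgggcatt
U6atac, chr2:27395451-27395520, minus strand: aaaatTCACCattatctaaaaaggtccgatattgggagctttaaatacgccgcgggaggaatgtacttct
U6, chr10:79371870-79371939, plus strand: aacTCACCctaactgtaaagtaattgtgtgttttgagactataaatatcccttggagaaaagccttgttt
U6, chr9:62981020-62981089, plus strand: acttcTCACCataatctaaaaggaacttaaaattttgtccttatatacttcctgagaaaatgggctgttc
Rn7s1, chr12:70260212-70260281, plus strand: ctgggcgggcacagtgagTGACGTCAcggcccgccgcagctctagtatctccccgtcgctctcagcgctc
Rn7s2, chr12:70462469-70462538, minus strand: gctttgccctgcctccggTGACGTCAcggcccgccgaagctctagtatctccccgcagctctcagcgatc

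TCACC began between 65 and 69 bases before the start in each of the 9 genes that had it. By comparison, 62 of the 1620 listed genes without control PolIII had TCACC in those 70 bases (3.83%), as did 1398 of 22367 protein-coding genes (6.25%). TGACGTCA began 52 bases before the start in both 7SL genes, and was in none of the 1620 and in 257 protein-coding genes (1.15%). These matches are descriptions of letters in a window. The 7SK copies on chromosomes 2 and 15, the U6 gene at chr10:79448251-79448357 and the vault RNA gene had neither motif.

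At these genes the scores were moderate. U6atac, a spliceosomal RNA gene in a member of 1529 bp on chromosome 2, scored 304 in the control list and 51 under Kap1 KD. Rn7s1 and Rn7s2, which encode the RNA of the signal recognition particle, scored 151 and 171 in the control list, with Kap1 KD scores of 65 and 76. Rmrp, the RNA of an RNase that cuts rRNA precursors, scored 117 and 57. Rn7sk, whose RNA holds back the elongation factor P-TEFb, scored 104 and 51. Rny1 scored 93 and 29. Rpph1, the RNA of the RNase that trims tRNA 5′ ends, scored 20 in the control and was not called under Kap1 KD. The U6 member with the lowest score, 18, was not called again either. The control score was the higher one at every member with both, except the 7SK copy on chromosome 15 with 54 and 83. That copy was the only one of the 14 members that lay in H3K9me3. H3K27ac overlapped 9 of the 14, against 7.32% of the whole list, and control PolII overlapped 4, against 2.96%.

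The members divided by chromatin mark. H3K27ac overlapped 138 of 323 members (42.7%, 37.4 to 48.2%) and 2.65% (2.09 to 3.37%) of the other control peaks, against 7.32% of the whole list, with an odds ratio of 27.4 (19.7 to 38.1; Fisher's exact test, adjusted p = 1.27e-90). H3K4me1 overlapped 137 members (42.4%) and 8.53% of the others, against 12.5% of the list (odds ratio 7.89, 6.07 to 10.3; adjusted p = 6.09e-49, Fisher's exact test). H3K4me1 overlapped 34.8% of members and 7.70% of others on chromosomes 1 to 4, and 48.4% and 26.4% elsewhere. On chromosomes 1 to 4 H3K27ac overlapped 35.5% of members and 2.52% of others, and elsewhere 48.4% and 5.45%. Both marks are found at active regulatory DNA. Of the members, 173 (53.6%) had at least 1 of them without H3K9me3, against 11.5% of the whole list. Another 83 members (25.7%) had none of the 3 marks, against 69.7% of the list, and 51 of the 83 held a tRNA element.

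H3K9me3, the mark of silenced chromatin, divided the members by chromosome. Over the whole genome it overlapped 67 members (20.7%) and 18.5% of the others, close to the 18.8% of the list (odds ratio 1.15, 0.863 to 1.53; Fisher's exact test, adjusted p = 0.363). On chromosomes 1 to 4 it overlapped 46.1% of members and 17.0% of others (odds ratio 4.18, 2.95 to 5.93). On the other chromosomes it overlapped 2 of 182 members (1.10%) and 51.8% of 110 others (odds ratio 0.0103, 0.00244 to 0.0437). The members thus lay on opposite sides of the other peaks in the 2 groups of chromosomes, each past the threshold (Fisher's exact test, adjusted p = 2.01e-14 and 1.20e-26), and the intervals did not overlap. Of the 67 members in H3K9me3, 2 held a tRNA element, 1 was the 7SK copy on chromosome 15 and 64 held neither. Just 4 of the 67 also had an active mark.

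**Figure D3:**
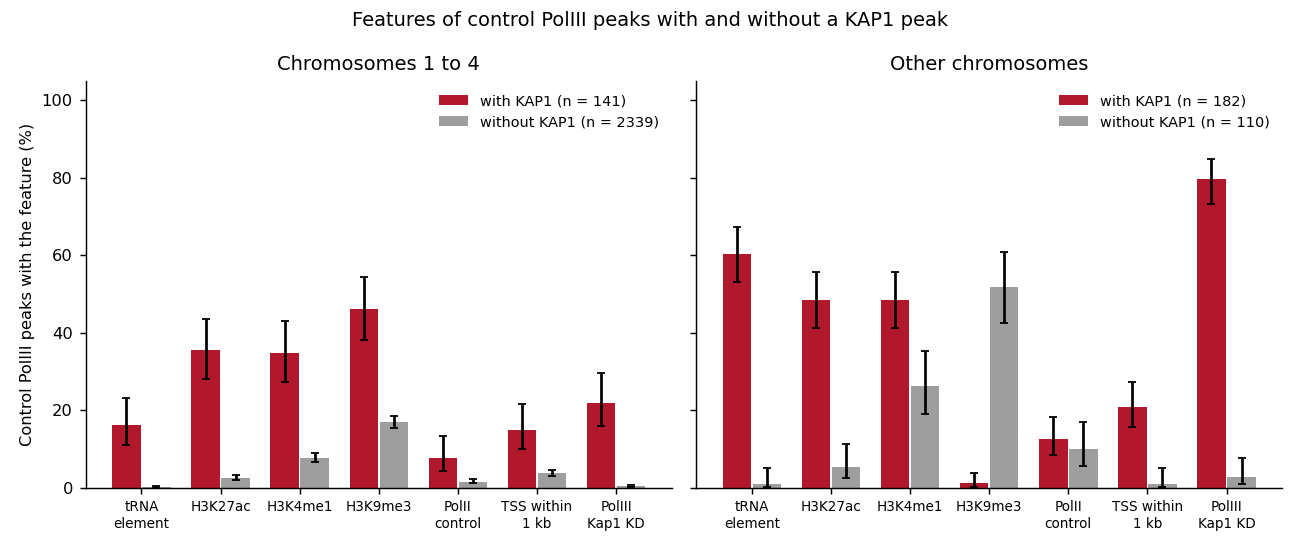
The share of control PolIII peaks with each feature, for peaks with KAP1 (red) and without (grey), on chromosomes 1 to 4 (left) and on the other chromosomes (right), with 95% Wilson intervals. The red bar is the higher one for every feature on the left, while for H3K9me3 on the right it is 1.10% against 51.8%.

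Active marks were frequent around the tRNA elements in members. An H3K27ac region lay within 1 kb of 136 of the 207 elements in members (65.7%, 59.0 to 71.8%), a window that includes the element, and overlapped the element itself in 12.1%. For H3K4me1 these shares were 73.4% and 9.66%. Among the 159 elements with neither PolIII nor KAP1, 4.40% had H3K27ac and 5.03% had H3K4me1 within 1 kb. The differences had odds ratios of 41.6 (18.5 to 93.5) and 52.2 (24 to 113), with adjusted p = 3.39e-37 and p = 7.49e-44 by Fisher's exact test. For H3K27ac the odds ratio was 47.1 on chromosomes 1 to 4 and 41 elsewhere, and for H3K4me1 it was 44.8 and 54.7. H3K9me3 lay within 1 kb of 1.93% of the elements in members and 14.5% of the others (odds ratio 0.117, 0.0394 to 0.344; Fisher's exact test, adjusted p = 6.94e-06), a difference not seen at the element itself or on chromosomes 1 to 4 alone (odds ratios 1.02 and 0.526). In the 89 members with 1 element, an H3K27ac region ended within 1 kb upstream in 36, began within 1 kb downstream in 33, did both in 20, and lay over the element in 11. These 3 tests were added after the values were seen and adjusted over the 3.

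Members lay mostly between protein-coding genes. By the GENCODE M1 annotation of mm9, the centre of 260 members (80.5%) was intergenic, that of 59 was in an intron and that of 4 in an exon, while of the other control peaks 57.0% were intergenic and 38.5% intronic. Of the 133 members with an element, 122 were intergenic (91.7%) and 11 intronic. This was close to the share of all 401 elements that were intergenic, 90.8%. The median distance from a member's centre to the nearest protein-coding transcript start was 9989 bp, and in H3K9me3 it was 23627 bp.

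A minority of members stood beside a PolII gene. A transcript start lay within 1 kb of the centre of 59 members (18.3%, 14.4 to 22.8%) and of 3.72% of the other control peaks, against 5.41% of the list (odds ratio 5.79, 4.07 to 8.23; Fisher's exact test, adjusted p = 2.27e-19). On chromosomes 1 to 4 the shares were 14.9% and 3.85%, and elsewhere 20.9% and 0.909%. Of these 59, 26 held a tRNA element, 33 overlapped H3K27ac, 11 overlapped control PolII and 37 were called again under Kap1 KD, against 4.94%, 7.32%, 2.96% and 6.75% of the whole list. All 26 with an element were called again. Control PolII overlapped 34 members in all (10.5%) and 48 of the 2449 others, against 2.96% of the list (odds ratio 5.88, 3.73 to 9.28; Fisher's exact test, adjusted p = 3.29e-12). On chromosomes 1 to 4 the shares were 7.80% and 1.58% (odds ratio 5.26, 2.63 to 10.6), while on the other chromosomes no difference passed the threshold, with 12.6% and 10.0% (odds ratio 1.30, 0.608 to 2.79; adjusted p = 0.575, Fisher's exact test). In Kap1 KD cells, whose PolII list is longer (12862 peaks against 5015), PolII overlapped 76 members (23.5%), against 7.03% of the whole control PolIII list. Outside chromosomes 1 to 4 these shares were 27.5% of members and 24.5% of others, and no test was run on them.

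Among the 20 highest-scoring members beside such a start, 16 held a tRNA element, 14 overlapped H3K27ac, 5 overlapped control PolII, 19 were called again under Kap1 KD and none overlapped H3K9me3. They were picked by score, and in the highest-scoring 65 of all members the shares were 80.0% with an element, 66.2% with H3K27ac and 96.9% called again, against 4.94%, 7.32% and 6.75% of the whole list. Polr3e, which encodes a PolIII subunit, had a Leu element 227 bp before its start, on its own strand, in a member with a control score of 186 and a Kap1 KD score of 34 that overlapped PolII in both lists. Tia1, an RNA-binding protein of stress granules, had a Gly element 326 bp before its start, with scores of 123 and 50. Ndufs7, a subunit of mitochondrial complex I, had a Phe element 85 bp before its start, on the other strand, and an Asn element whose first base lay 38 bp inside it, in a member that scored 228 and 92. Prmt5, an arginine methyltransferase, had an Arg element 171 bp before its start on the other strand, with scores of 122 and 35. Casc5, a kinetochore protein, had a Ser element 288 bp before its start on the other strand, with scores of 305 and 54. Rps29, a ribosomal protein gene, stood 327 bp from the centre of the member over Rn7s1. Ilf2, a subunit of a double-stranded RNA-binding complex, stood 439 bp from a member with no element, which scored 288 and 49. The other 13 genes were 1700064H15Rik, 2610301B20Rik, 1110001J03Rik, 0610011F06Rik, Mynn, Agbl5, Acp6, B3gnt1, Ppp6r3, Psmb3, Smarcc2, Opn1sw and Nr1i3.

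Members were unevenly spread and partly clustered. Joined at gaps of at most 50 kb, the 323 members formed 239 groups, of which 214 were single members, 13 were pairs and 12 held 3 or more. The 12 held 83 members (25.7%), and 67 of those 83 carried a tRNA element. The count depends on the gap, since at 10 kb 48 members lay in such clusters and at 100 kb 94 did. The other 66 members with an element stood alone or in pairs. Chromosome 1 had most members, 57 of its 1343 control peaks. Then came chromosome 13 (48 of 53), 2 (41 of 739), 3 (35 of 311) and 11 (30 of 33). These counts partly follow the uneven control list, and by share chromosomes 13 and 11 stood far above 1, 2 and 3.

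The 3 largest clusters all lay on chromosome 13, within 2.37 Mb. This stretch, from 21252596 to 23622507, held 45 of the chromosome's 48 members and all 93 of its tRNA elements, and it is the region of the major histone gene cluster. The largest, from 23517264 to 23622507, held 17 members, 14 of them with an element, and 25 of its 26 elements were in members. These 25 covered 14 amino acids, with 6 of the genome's 10 Tyr elements, and the cluster reached the butyrophilin genes Btn1a1 and Btn2a2. The second, from 21252596 to 21418800, held 13 members, all with an element, and 17 of its 24 elements were in members. It held 4 Leu, 3 Met and 3 Ala elements in members and overlapped Gpx5, Gpx6 and Trim27. The third, from 21999767 to 22142885, held 13 members, 12 with an element, and 16 of its 23 elements were in members, 5 of them for Ser. It overlapped 5 histone genes, such as Hist1h4i, and the zinc finger gene Zfp184. Of the members of the 3 clusters, 16, 11 and 11 were called again under Kap1 KD, on 9, 9 and 5 Kap1 KD peaks. Over the whole control list 6.75% were called again, and over all members with an element 93.2%. H3K27ac overlapped 5, 1 and 7 of them, against 7.32% of the list, and none overlapped H3K9me3.

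Of the smaller clusters, 3 were singled out after their values were seen, 1 for its high scores and 2 because the search found no tRNA element there. On chromosome 11, from 68822276 to 68938959, 7 members near Per1, Vamp2 and Aurkb, 5 of them with an element, had a median score of 458, and 16 of the 18 elements there lay in them. On chromosome 6, from 128709980 to 128793710, lay 6 members beside the natural killer receptor genes Klrb1b and Klrb1c. The search found no tRNA element in them. Their control scores were 247, 128, 62, 344, 15 and 159, and all 6 overlapped a Kap1 KD peak, with scores of 226, 226, 25, 200, 200 and 200. These were 3 Kap1 KD peaks, 2 of them over several members, and 6.75% of the whole control list was called again. H3K27ac overlapped 5 of the 6 and control PolII 3 of them, against 7.32% and 2.96% of the list. The strongest of these, chr6:128788081-128789588, was also the highest-scoring member with no tRNA element and no listed PolIII gene, with a Kap1 KD score of 200. On chromosome 1, from 173135727 to 173198789, 3 members without an element lay near Nr1i3 and Apoa2, among 5 other control PolIII peaks, and 1 of the 3 was called again.

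The next members of that kind were chr3:90279090-90280277, beside Ilf2, and chr1:173135727-173150730, which scored 264. The latter was 15004 bp wide, the widest of all members, spanned Nr1i3 and Tomm40l, and was not called again under Kap1 KD. It had a KAP1 score of 110.4 and the highest PolIII score among members without a Kap1 KD peak.

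The B box was also searched by itself. Elements were called only where the search found a B box, so a higher share in members with an element is built in. The 11-base consensus of the B box, searched on both strands within 500 bp of the peak centre, was in 89 of 133 members with an element (66.9%), in 6 of 190 members without one (3.16%), in 0.449% of the other control peaks and in 1.08% of KAP1 peaks without control PolIII. In windows of the same length taken every 100 kb of the genome it was in 0.184%. The shorter and looser GTTCNANNC, which matches wherever the consensus does, was in 94.7% of members with an element, 66.3% of members without, 37% of the other control peaks and 35.4% of genome windows.

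The share of members called again after Kap1 knockdown differed by kind of member. Over the whole control list 6.75% of peaks overlapped a Kap1 KD PolIII peak, and among members 176 of 323 did (54.5%, 49.0 to 59.8%). On chromosomes 1 to 4 these were 22.0% of members and 0.342% of others, and elsewhere 79.7% and 2.73%. Of the 133 members with a tRNA element, 124 were called again (93.2%, 87.6 to 96.4%), and of the 190 without, 52 were (27.4%, 21.5 to 34.1%). The odds ratio was 36.6 (17.3 to 77.3; Fisher's exact test, adjusted p = 4.64e-35), and it was 20.4 stratified by the control score, 16.8 without chromosomes 1 to 4 and 15.1 with the search without boxes. Of the 14 members on another PolIII gene, 12 were called again. Of the 112 members of neither kind outside H3K9me3, 39 were (34.8%), and of the 64 in H3K9me3, 1 was (1.56%).

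**Figure D4:**
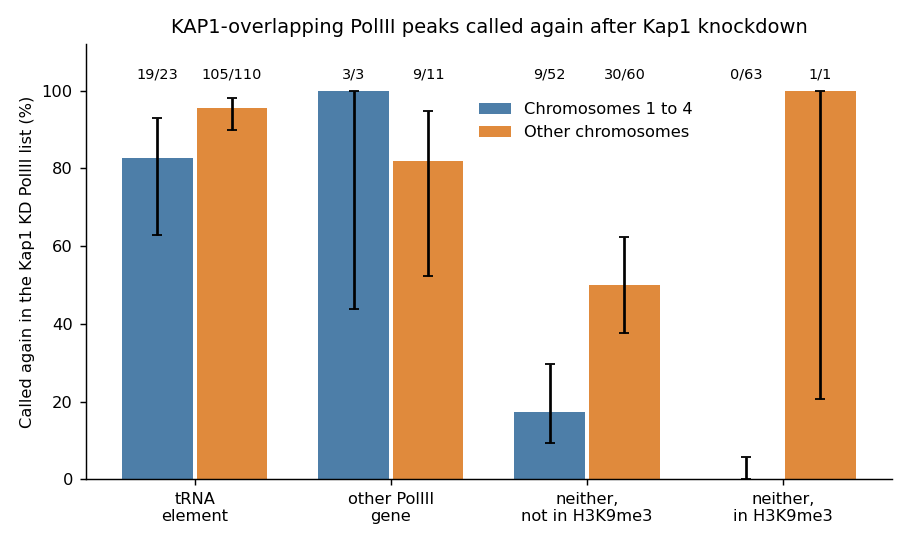
The share of members called again in the Kap1 KD PolIII list, by kind of member and group of chromosomes, with 95% Wilson intervals and the counts above each bar. Of members with a tRNA element, 82.6% on chromosomes 1 to 4 and 95.5% elsewhere were called again, while of the 63 members of neither kind in H3K9me3 on chromosomes 1 to 4 none was.

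For the 0 of 63, as for every absence of a peak, the lists show a call that was not made and not the absence of PolIII. The peaks of the Kap1 KD list carry running numbers up to 958, of which 527 are missing. Of the 147 members without a Kap1 KD peak, 82 fell where such numbers are missing. The 9 that held a tRNA element had control scores up to 99, and 3 of them fell at a gap in the numbers. Outside chromosomes 1 to 4 the 3 highest-scoring members not called again scored 37, 37 and 33, and 2 of them held a Lys element.

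Recall under Kap1 KD rose with the control score. With the members ordered by control score and cut into 5 bins, from 12 to 25 up to 154 to 1306, the share called again was 13.8%, 26.6%, 49.2%, 85.9% and 96.9%. The share with a tRNA element rose along with it, from 4.62% to 80.0%. That in H3K9me3 did not fall steadily, with 26.2%, 32.8%, 33.8%, 9.38% and 1.54%. H3K27ac showed no steady order either, with 46.2%, 28.1%, 26.2%, 46.9% and 66.2%. In the members called again the median score was 120.5 in the control list and 52.5 in that of Kap1 KD, and 29 of the 176 had the higher score under Kap1 KD, all of them outside chromosomes 1 to 4. A Kap1 KD peak can overlap several members, and its score is then given to each: the 176 members met 149 Kap1 KD peaks, and 25 of the 29 lay on a Kap1 KD peak shared with another member. Scores of separate libraries cannot be read as amounts of PolIII.

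**Figure D5:**
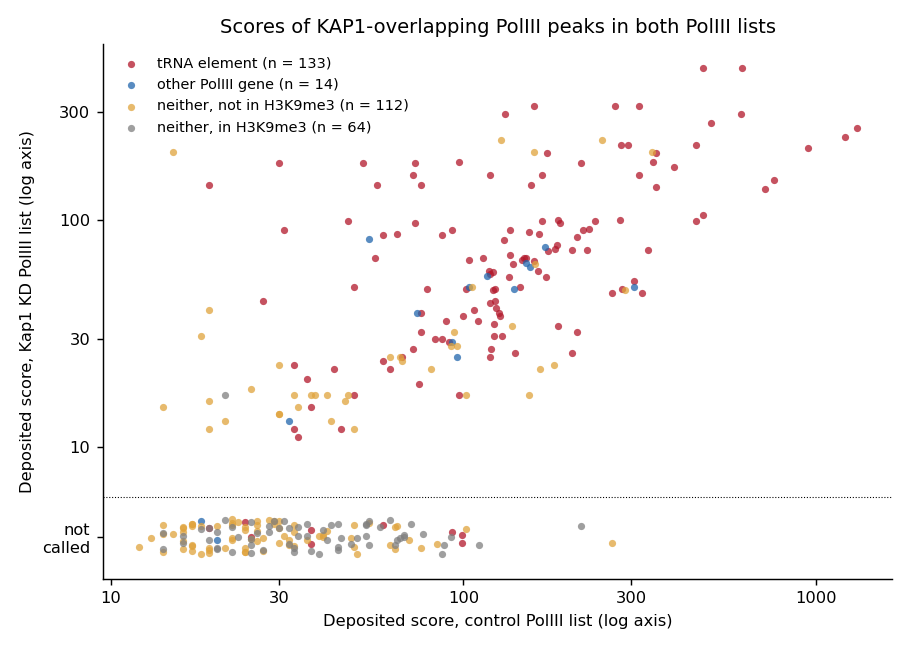
The deposited score of each of the 323 members in the control PolIII list (x, log axis) and, where a Kap1 KD peak overlapped it, the highest such score (y, log axis), coloured by kind of member. Members not called again are spread along the bottom strip, and all but 9 of them lack a tRNA element.

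H3K27ac went with recall less firmly. Of the 138 members with H3K27ac, 87 were called again (63.0%, 54.7 to 70.6%), and of the 185 without, 89 were (48.1%, 41.0 to 55.3%), an odds ratio of 1.84 (1.17 to 2.89; Fisher's exact test, adjusted p = 0.0105). It did not pass the threshold when stratified by control score (1.78) or without chromosome 1 (1.31). All 57 members with both an element and H3K27ac were called again, against 67 of the 76 with an element alone. Stratified by tRNA element the odds ratio was 2.98, and among members without an element the shares were 30 of 81 and 22 of 109. Among members with neither an element nor H3K9me3 they were 38% and 43.5%. The odds ratio was 4.85 on chromosomes 1 to 4 (adjusted p = 0.000233, Fisher's exact test) and 0.654 on the others (adjusted p = 0.308, Fisher's exact test).

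From the other side, 149 of the 431 Kap1 KD PolIII peaks lay at members, and 99 of these held a tRNA element. The 282 Kap1 KD peaks elsewhere held an element in 2 cases and overlapped KAP1 in 9. Their median score was 18, against 48 for those at members. The Kap1 KD peaks at members had a median width of 752 bp, and the members that they overlapped one of 568 bp.

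At the limit of 1 bp, the members with the least overlap shared 19, 23 and 66 bp with a KAP1 peak, and the nearest non-members lay 46, 107 and 135 bp from one. None of these 6 held a tRNA element, and 1 of them, the member with 66 bp, which is 66 bp wide and covered whole, was called again under Kap1 KD. The smallest share of a member that KAP1 covered was 0.956%. KAP1 covered the whole of 229 members, and the median overlap was 565 bp.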

How the data were processed

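Hepa 1-6 cells were profiled by ChIP-seq. The authors mapped reads with Bowtie to mm9 and called peaks with MACS against input for KAP1 and PolII and with ChIP-Part for the histone marks. The caller of the PolIII lists is not given in the sources used here. The deposited lists hold positions, and the score values in the deposited KAP1, PolII and PolIII lists are those the authors' callers wrote, with the meaning of the whole-number PolIII score not stated. The lists give no counts, so depth and its precision are unknown. Of 13 samples, 8 with a list were used, 1 per group, and 5 inputs were not analysed here.

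Members are control PolIII peaks that share at least 1 bp with a KAP1 peak. Members, gene lists and tests were chosen with earlier results of these data known. tRNA elements were found on both strands of mm9 by a cloverleaf search with A and B box conditions. The search first designed, without the boxes, gave 112439 hits, so the boxes were added after the data were seen. The 401 elements compare with 408 nuclear tRNA genes in RefSeq (GRCm38.p6, used for names and gene neighbours only), with 362 matched by anticodon counts. The search can miss tRNA genes, so a member without an element is one where none was found. Elements longer than 79 bases, other than Leu and Ser, were read again with an intron. Genes came from GENCODE M1. The selenocysteine tRNA gene was planned for the list of PolIII genes but was not looked up, so a member over it would count as neither kind. The element sequence of 1 of the 5 highest-scoring members is not reported here.

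Classes of peaks were compared by two-sided Fisher's exact test with Benjamini-Hochberg adjustment over 9 tests, over all peaks and within groups of chromosomes, and shares were given with 95% Wilson intervals. Scripts were tested on simulated data. Python 3.11.15, scipy 1.17.1, pandas 2.3.3, statsmodels 0.14.6, numpy 2.4.6, numba 0.67.0 and matplotlib 3.10.9 were used. The members named are those over a listed PolIII gene, the 3 largest clusters, the 5 highest-scoring members, the 3 highest-scoring with neither an element nor a listed gene, and the 3 highest-scoring outside chromosomes 1 to 4 with and without a Kap1 KD peak. The neighbouring genes named are those beside the 20 highest-scoring members within 1 kb of a transcript start, of which those with details were chosen after their values were seen. Genes in or near clusters are named to place them. Alternatives changed the overlap, the element search, the KAP1 list, the score strata, the cluster gap and the chromosomes used.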

Additional observations from a re-analysis of the deposited data

How the results depend on the processing

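Of 253 alternative values with a test, 239 kept their direction and their side of the threshold, and of 8 alternative counts without a test, 7 stayed within 1.5 times. The odds ratio of H3K9me3 by KAP1, 1.15 over all chromosomes, was 0.0103 without chromosomes 1 to 4, 4.18 on those alone, 0.430 without chromosome 1, 0.991 without chromosome 2, 1.41 without chromosome 13, 0.869 stratified by score and 1.75 when the centre had to lie inside the other region. That of control PolII by KAP1 was 1.30 without chromosomes 1 to 4. That of Kap1 KD PolIII by H3K27ac was 0.654 without chromosomes 1 to 4, 1.31 without chromosome 1, 1.78 stratified by score and, in alternatives chosen after seeing the data, 0.796 among members with neither an element nor H3K9me3 and 2.98 stratified by tRNA element. It was 4.85 on chromosomes 1 to 4 alone. Also chosen after seeing the data, H3K9me3 near elements had an odds ratio of 1.02 at the element itself and 0.526 on chromosomes 1 to 4. At a gap of 10 kb, 48 members lay in clusters, against 83. The cause was not tested. The element by KAP1 ran from 10.4, with the search without boxes, to 1596, and the Kap1 KD list by element from 15.1 to 44.9. The member count was 276 to 295 under the stricter overlaps and KAP1 lists. Transcript starts were counted from the peak centre in every setting, so the alternative by the centre did not apply to them. No paired analysis was possible because each group holds 1 library, which also leaves every difference between control and Kap1 KD without a replicate check.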

Other observations

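Of the 31 tRNA elements in a KAP1 peak but in no control PolIII peak, H3K9me3 lay over 16, H3K27ac was within 1 kb of 7 and H3K4me1 within 1 kb of 20, and 4 lay in a Kap1 KD PolIII peak. By comparison, H3K9me3 lay over 4 of the 207 elements in members and 3 of the 159 with neither protein, H3K27ac was within 1 kb of 136 and 7 of these, H3K4me1 within 1 kb of 152 and 8, and 196 of all 401 elements lay in a Kap1 KD PolIII peak. Those 4 were all of the elements with Kap1 KD PolIII that had no control PolIII peak. These are counts with no test.

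Promoters of the PolIII machinery itself were looked at within 250 bp of the start, for 36 genes of subunits, TFIIIB, TFIIIC, SNAPc and related factors. KAP1 lay at 13 of them, against 15.7% of all protein-coding genes, among them Polr3a, Polr3b, Polr3g, Polr3k, Brf2, Tbp, Gtf3c1 and Gtf3c3. H3K27ac lay at 16, against 4464 of 22367, control PolII at 15, against 13.1%, and PolII in Kap1 KD cells at 22, against 23.3%. Control PolIII lay at 1, Polr3e.

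Some members lay over small RNA genes that PolII is known to transcribe. The 3 members over U1 genes on chromosome 3 scored 93, 99 and 99, each held at least 1 tRNA element, and none was called again under Kap1 KD, against 6.75% of the whole control list and 93.2% of members with an element. H3K9me3 and control PolII overlapped the pair that scored 99, against 18.8% and 2.96% of the list. The member over a U2 gene on chromosome 11 held no element and scored 46 in the control and 16 under Kap1 KD.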
